A study of Mus musculus with 70 samples.

Results

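The CC chemokines that act on monocytes and related leukocytes were followed with their receptors in mouse bone after injury. The group held 9 genes out of 45634 gene names measured in both bones, taken by symbol. It was made of 7 ligands (Ccl2, Ccl7, Ccl12, Ccl8, Ccl3, Ccl4 and Ccl9) and 2 receptors (Ccr1 and Ccr2). All 9 were found in the femur and ulna tables, and all 9 passed the filter on low values in each fit. The labels call no cell type for these genes, and whole bone was measured, so fewer cells of a type and less RNA per cell cannot be told apart.

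Chemokines of the CC family are small secreted proteins with a pair of adjacent cysteines near their start. They hold onto matrix sugars, form local gradients and draw leukocytes that carry matching receptors coupled to G proteins. Ccr2 is the receptor that lets inflammatory monocytes leave the bone marrow and enter injured tissue, and in mice Ccl2, Ccl7 and Ccl12 are its ligands. Ccr1 is carried by neutrophils, monocytes and osteoclasts, and Ccl3 and Ccl9 are among its ligands. In bone, monocytes supply both the macrophages that clear damaged tissue and the precursors of osteoclasts, the cells that resorb bone.

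Female C57BL/6 mice of 12 weeks had either a full fracture of the right femur, a complete break, or a stress fracture of the right ulna, a crack that leaves the bone in one piece. Full fracture femora were taken at 4 h, 1 d, 3 d, 7 d and 14 d (n = 5 libraries each) and compared with intact left femora (n = 10). Stress fracture ulnae were taken at 4 h (n = 5), 1 d (n = 4), 3 d (n = 5), 5 d (n = 5) and 7 d (n = 4) and compared with intact left ulnae (n = 9). The remaining 3 labelled samples, 1 intact ulna and 1 ulna each at 1 d and 7 d, were not analysed here. No genetic change or drug was named for any group. The intact bones were the other limbs of injured animals, so they come from mice with an injury elsewhere, and the time at which each was taken is not used here. A femur section was 7 mm long with its marrow spun out, and an ulna section was 5 mm long with no such step named. The time labels say periosteum, the membrane on the bone surface, whereas the protocol describes whole sections.

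Rebuilt from the value of 1 read, the depth of the 67 libraries was 8.12 M to 30.8 M assigned reads (median 16.4 M). Levels are given as scaled RPKM, which are reads set to gene length and library size and then scaled once more per library. A log2 difference is the difference of means of log2(scaled RPKM + 0.1), which understates the change of low genes. A gene was called higher or lower at an adjusted p under 0.05 from limma over all genes of the fit. Markers of other cells moved with injury: at 4 h after full fracture 10 of 12 neutrophil, 10 of 10 monocyte and 6 of 6 erythroid markers were higher, where 28.3% of all genes were. The erythroid sum was 2088 to 4208 in these femora, against 844 to 1677 in intact femora, while after stress fracture at 4 h 0 of 6 were called (2300 to 3994, against 2073 to 3253 in intact ulnae). The part of these markers in the results was not tested. Chondrocyte markers stood apart in full fracture library 1 at 4 h (summed level 782 against 55.0 to 58.0 in the others) and in library 4 at 1 d (353 against 26.6 to 37.4). Stress fracture library 4 at 7 d also stood apart, with a chondrocyte sum of 56.4 against 366 to 534 in the others and an osteoclast sum of 379 against 682 to 925. How many genes were called in each direction depended on scaling. With upper-quartile scaling the share of calls that were higher was 31.1 to 41.5% over the 5 full fracture comparisons and 26.7 to 33.2% over the 4 response differences, against 49.2 to 51.9% and 48.2 to 50.8% with the scaling used. With RPKM as deposited it was 30.7 to 64.0% over the 5 stress fracture comparisons, against 51.5 to 68.9%.

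The ligand genes lie in a pair of clusters on mouse chromosome 11, and the receptor genes lie on chromosome 9 (GENCODE M21 annotation, GRCm38, the build the authors used). Ccl2 (ENSMUSG00000035385.5, plus strand, chr11:82035571-82037453), Ccl7 (chr11:82045712-82047525), Ccl12 (chr11:82101845-82103400) and Ccl8 (chr11:82115185-82116799) stand on the plus strand within 81.2 kb. Ccl9 (minus strand, chr11:83572919-83578636), Ccl3 (minus strand, chr11:83647844-83649355) and Ccl4 (plus strand, chr11:83662584-83664683) stand within 91.8 kb. Ccr1 (minus strand, chr9:123962124-123968692) and Ccr2 (plus strand, chr9:124101950-124113557) span 151 kb together. All 9 are protein coding. Gm17268, annotated as protein coding on the minus strand, overlaps Ccl2, and without strand the reads of the pair cannot be told apart. Gm17268 was listed at 0 in 32 of 35 femur libraries and in all 32 ulna libraries, and its highest level was 1.19 scaled RPKM, in full fracture library 1 at 4 h.

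Promoter sequences were looked up because ligands of one cluster had different time courses. RefSeq windows (GRCm38.p6) were present for 6 of the 9 genes. The 4 ligands among them are shown over the 150 bases before the start, 5′ to 3′ on the strand of the gene, at chr11:82101695-82101844 for Ccl12 (plus strand), chr11:82115035-82115184 for Ccl8 (plus strand), chr11:83649379-83649528 for Ccl3 (minus strand) and chr11:83578637-83578786 for Ccl9 (minus strand). Capitals mark matches to any of the 5 motifs searched.
Ccl12: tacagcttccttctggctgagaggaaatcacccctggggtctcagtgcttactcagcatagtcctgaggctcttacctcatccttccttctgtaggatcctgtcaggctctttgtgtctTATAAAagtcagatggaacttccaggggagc
Ccl8: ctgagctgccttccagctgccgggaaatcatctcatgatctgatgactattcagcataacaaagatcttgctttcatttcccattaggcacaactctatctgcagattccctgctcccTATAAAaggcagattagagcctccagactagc
Ccl3: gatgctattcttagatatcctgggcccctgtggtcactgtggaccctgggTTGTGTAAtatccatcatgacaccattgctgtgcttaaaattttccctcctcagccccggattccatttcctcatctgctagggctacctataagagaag
Ccl9: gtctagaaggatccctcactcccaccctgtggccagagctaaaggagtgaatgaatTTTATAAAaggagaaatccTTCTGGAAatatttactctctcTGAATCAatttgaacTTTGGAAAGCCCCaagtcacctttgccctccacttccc
The motifs were searched on both strands over the 250 bases before each start. They were the TATA box (TATAAA, in 12.4% of 32851 promoters), AP-1 (TGANTCA, in 6.75%), the kappaB motif of the NF-kB factors (in 3.9%), C/EBP (TTNCNNAA, in 36.8%) and PU.1 (GAGGAAG, in 10.6%). Ccl12 and Ccl8, neighbours in the genome, each held a TATA box in nearly the same place, from 31 to 26 and from 32 to 27 bases before the start. Ccl8 also held a PU.1 match on the minus strand from 241 to 235 bases, outside the stretch shown, and Ccl12 did not. Ccl9 held an AP-1 match from 53 to 47 bases and a kappaB match on the minus strand from 35 to 26 bases before the start. The capitals of Ccl9 join overlapping matches, TATAAA on both strands from 94 to 87 bases and a C/EBP match that runs into the kappaB match. A further TATAAA match of Ccl9, on the minus strand from 224 to 219 bases, lies outside the stretch shown. Ccl3 held 1 C/EBP match. Of the receptors, Ccr1 held a C/EBP match from 131 to 124 bases and Ccr2 from 243 to 236 bases. A match describes these letters only.

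After full fracture nearly all of these genes were higher than in intact femora, with the strongest changes at 4 h and 1 d. At 4 h, 8 of the 9 genes were higher and 1 was lower, where 28.3% of all 19944 genes tested were called higher and 28.5% lower, and the median log2 difference of the 9 was 2.81. At 1 d, 8 were higher and 0 lower (26.7% and 24.8% of all genes), with a median of 2.87. At 3 d, 8 were higher and 0 lower (28.8% and 28% of all genes), with a median of 1.94. The count narrowed at 7 d and widened again at 14 d. At 7 d, 5 were higher and 1 lower (32.5% and 33.6% of all genes), with a median of 0.77. At 14 d, 8 were higher and 0 lower (28.9% and 27% of all genes), with a median of 1.17. The median over all genes stayed between -0.077 and -0.030 in these 5 comparisons.

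After stress fracture fewer of the 9 genes were called at each time shared with full fracture. At 4 h, 4 of the 9 genes were higher and 0 lower than in intact ulnae, where 5.51% of 20506 genes were called higher and 5.19% lower, and the median of the 9 was 0.70. At 1 d, 5 were higher and 0 lower (8.83% and 3.98% of all genes), with a median of 1.22. At 3 d, 7 were higher and 0 lower (20.2% and 17.6% of all genes), with a median of 1.12. Calls fell off from 5 d. At 5 d, 4 were higher and 1 lower (22.3% and 20.9% of all genes), with a median of 0.37. At 7 d, 3 were higher and 0 lower (18.5% and 16% of all genes), with a median of 0.34. The median over all genes lay between -0.030 and -0.0035.

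**Figure D1:**
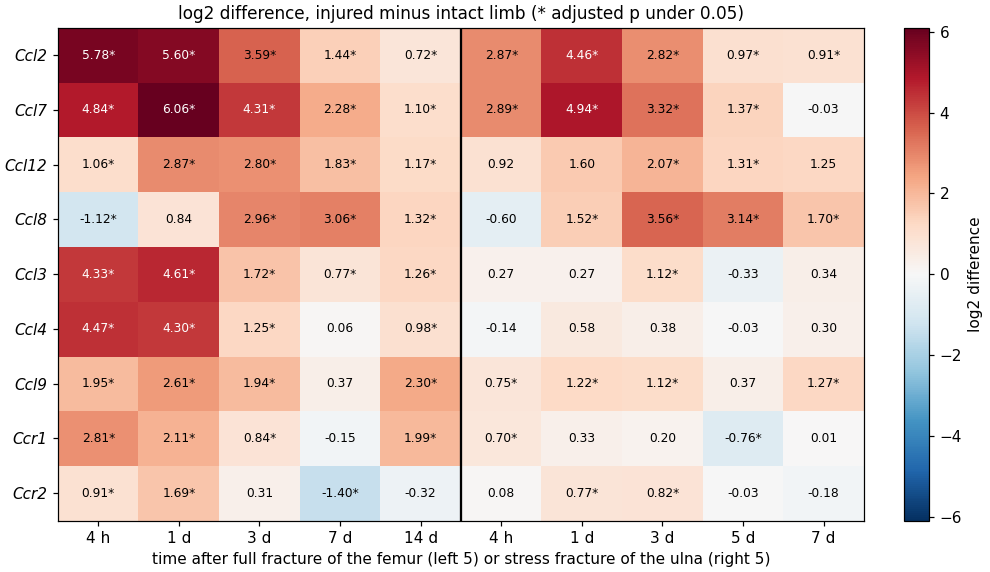
Log2 difference between injured and intact limbs for each gene (rows) at each time (columns), with full fracture of the femur in the left 5 columns and stress fracture of the ulna in the right 5; red is higher and blue lower in the injured limb, and a star marks an adjusted p under 0.05. Ccl2 and Ccl7 are red on both sides except for Ccl7 at 7 d in the ulna, Ccl3 and Ccl4 are strongly red only in the femur columns of 4 h and 1 d, and Ccl8 is reddest at 3 d and 7 d in the femur and at 3 d and 5 d in the ulna.

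Ccl2, the main monocyte attractant of the family, was the most abundant of the 7 ligands 4 h after full fracture. Its level was 26.6, 78.1, 71.7, 50.1 and 86.3 scaled RPKM in the 5 femora at 4 h, and 45.8, 71.3, 43.8, 38.3 and 62.8 at 1 d, against 0.483 to 1.31 (median 0.964) in the 10 intact femora. Every injured femur at these times stood far above every intact one, and library 1 was the lowest at 4 h. The log2 difference was 5.78 ± 0.22 (SE, limma adjusted p = 5.25e-20) at 4 h and 5.60 ± 0.22 (3.79e-19) at 1 d. It then shrank to 3.59, 1.44 and 0.72 at 3 d, 7 d and 14 d, and all 3 were called. At 14 d the femora (1.29 to 1.98) overlapped the intact ones.

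In the ulna Ccl2 was higher at every time, with its largest difference at 1 d. The 5 stress fracture ulnae at 4 h held 3.80, 5.79, 4.14, 2.92 and 3.37 scaled RPKM, and the 4 at 1 d held 13.1, 13.6, 17.1 and 6.69, against 0.310 to 0.707 (median 0.417) in the 9 intact ulnae. No injured ulna at 4 h or 1 d overlapped the intact ones. The log2 difference was 2.87 ± 0.31 (limma adjusted p = 4.56e-07) at 4 h and 4.46 ± 0.34 (6.52e-10) at 1 d. Levels at 1 d were higher than at 4 h by a log2 difference of 1.59 ± 0.38 (limma adjusted p = 0.00514, where 7.25% of all genes were called higher), whereas in the femur 1 d and 4 h differed by -0.18 ± 0.26 (0.615). The 3 d ulnae spread widely, from 1.12 to 9.996. At 7 d Ccl2 was 0.91 ± 0.34 higher (limma adjusted p = 0.0360), a call lost without any 1 of 3 of the 4 injured ulnae (0.71 to 0.96 without library 1, 2 or 5), and the groups overlapped.

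Ccl7, which shares Ccr2 with Ccl2, followed it closely but peaked at 1 d in both bones. At 1 d the femora held 32.8, 61.6, 37.6, 28.1 and 52.0 scaled RPKM, against 0.206 to 0.847 in intact femora. At 4 h they held 10.5 to 25.3. The log2 difference was 4.84 ± 0.25 at 4 h and 6.06 ± 0.25 at 1 d (limma adjusted p = 1.13e-16 and 1.27e-18), the largest of any of the 9 genes in any comparison with intact bone. Levels at 1 d were above those at 4 h by 1.22 ± 0.29 (limma adjusted p = 0.00111, where 20.3% of all genes were called higher), and no library of one time overlapped the other. Ccl7 was still higher at 14 d, by 1.10 ± 0.25.

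Stress fracture raised Ccl7 too. Its 4 ulnae at 1 d held 8.50, 11.9, 15.9 and 10.4 scaled RPKM, against 0.134 to 0.743 in the 9 intact ulnae, a log2 difference of 4.94 ± 0.48 (limma adjusted p = 5.18e-08). At 4 h they held 1.49 to 4.90, also above every intact ulna (2.89 ± 0.44, 4.50e-05). At 3 d library 4 held 11.8 and the other 4 held 1.84 to 5.27. By 7 d the gene overlapped the intact ulnae, with 0.391, 0.401, 0 and 0.637 scaled RPKM and a log2 difference of -0.027 ± 0.48. At 5 d the difference was 1.37 ± 0.44 (limma adjusted p = 0.0127), a call lost without library 1 (1.12, 0.0555).

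Ccl12, the third Ccr2 ligand and one with no clear human counterpart, was far less abundant and rose later. The femora held 1.02 to 1.75 scaled RPKM at 4 h, 5.17, 5.76, 5.12, 3.14 and 5.70 at 1 d, and 2.67 to 6.82 at 3 d, against 0.185 to 1.70 in intact femora. The 1 d and 3 d femora stood above all intact ones and the 4 h femora overlapped them. Log2 differences were 1.06 ± 0.32 at 4 h, 2.87 ± 0.32 at 1 d and 2.80 ± 0.32 at 3 d (limma adjusted p = 0.00590, 8.19e-09 and 7.25e-09). In the ulna Ccl12 was called at 3 d (2.07 ± 0.52, limma adjusted p = 0.00209) and 5 d (1.31 ± 0.52, 0.0414). Ulna counts were small, with a median of 3 reads in intact libraries, and every time overlapped intact. The 5 d call was lost without library 2, 3, 4 or 5 in turn (0.94 to 1.38), and the 1 d difference of 1.6 (0.0571) became a call without library 5 (2.15, 0.0134).

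Ccl8, next to Ccl12 in the genome and in mice a ligand of Ccr8, had a different early course. Its femora at 4 h held 0.460, 1.41, 2.76, 1.02 and 0.585 scaled RPKM, against 0.849 to 4.98 (median 2.49) in intact femora. The groups overlapped, and the log2 difference was -1.12 ± 0.36 (limma adjusted p = 0.00937), a call lost without library 1 (-0.86, 0.0568), the library whose chondrocyte markers stood apart. At 1 d it was 0.84 ± 0.36 higher, outside the threshold (0.0536), and inside it without library 4 (1.00, 0.0357). The authors' deposited tables gave Ccl8 a log2 fold change of -0.93 with an adjusted p of 0.0266 at 4 h. At 1 d they gave 0.72 with an adjusted p of 0.0409.

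The high phase of Ccl8 in the femur came at 3 d and 7 d, when Ccl2, Ccl3 and Ccl4 were below their early levels. At 3 d Ccl2, Ccl3 and Ccl4 still stood above all intact femora, and in the ulna Ccl3 was itself called higher at 3 d. For Ccl8, femora held 12.6, 15.4, 26.5, 24.5 and 20.2 scaled RPKM at 3 d, and 17.6, 37.3, 23.4, 8.80 and 26.4 at 7 d, and none overlapped intact femora. The log2 differences were 2.96 ± 0.36 and 3.06 ± 0.36 (limma adjusted p = 2.82e-08 and 8.96e-09). In the ulna the 3 d libraries held 5.51, 15.5, 15.0, 13.7 and 11.3 and the 5 d libraries 7.68, 13.3, 8.04, 4.80 and 11.7, against 0.171 to 1.70 in intact ulnae. Again no injured library overlapped intact ones, with differences of 3.56 ± 0.37 and 3.14 ± 0.37 (limma adjusted p = 1.01e-08 and 6.42e-08). Macrophage markers were also higher at 3 d: 10 of 12 in the femur (summed level 634 to 838, against 181 to 431 in intact femora) and 10 of 12 in the ulna (316 to 642, against 231 to 324 in intact ulnae). At 7 d in the femur 6 of 12 were higher and 1 lower (355 to 539, overlapping intact femora). At 5 d in the ulna 5 of 12 were higher and 0 lower (315 to 383). Over all genes 28.8% were called higher at 3 d and 32.5% at 7 d in the femur, and 20.2% at 3 d and 22.3% at 5 d in the ulna. The shares called lower were 28% and 33.6% in the femur, and 17.6% and 20.9% in the ulna. Of 10 mesenchymal and fibroblast markers, 7 were higher and 2 lower at 7 d in the femur (10020 to 12550, against 3053 to 8938 in intact femora). Their femur sum lay within the intact range at 3 d (6884 to 8447). At 14 d it was 10980 to 14870. Median unscaled Ccl8 reads in the femur were 238 at 7 d and 57 at 14 d. In the ulna 8 of 10 of them were higher and 2 lower at 3 d (6054 to 7538), and 8 higher and 1 lower at 5 d (8382 to 13470), against 887 to 3010 in intact ulnae. At 7 d the ulna sum was 6827 to 11870. Median unscaled Ccl8 reads in the ulna were 56 at 5 d and 31 at 7 d. Osteoblast and osteocyte markers summed to 5284 to 7260 at 3 d and 8617 to 14400 at 5 d in the ulna, against 785 to 2901 in intact ulnae. This list and the mesenchymal list share Col1a1, so their sums are not separate measures. Chondrocyte markers summed to 88.9 to 293 at 3 d, 4739 to 11230 at 7 d and 341 to 2964 at 14 d in the femur (intact 53.7 to 138). In the ulna their sum was 47.0 to 124 at 3 d, 438 to 1701 at 5 d and 56.4 to 534 at 7 d (intact 8.90 to 28.5). The part of these markers in the Ccl8 result was not tested. At 1 d in the ulna Ccl8 was 1.52 ± 0.40 higher (limma adjusted p = 0.0106), a call lost without library 4 (1.27, 0.0616).

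**Figure D2:**
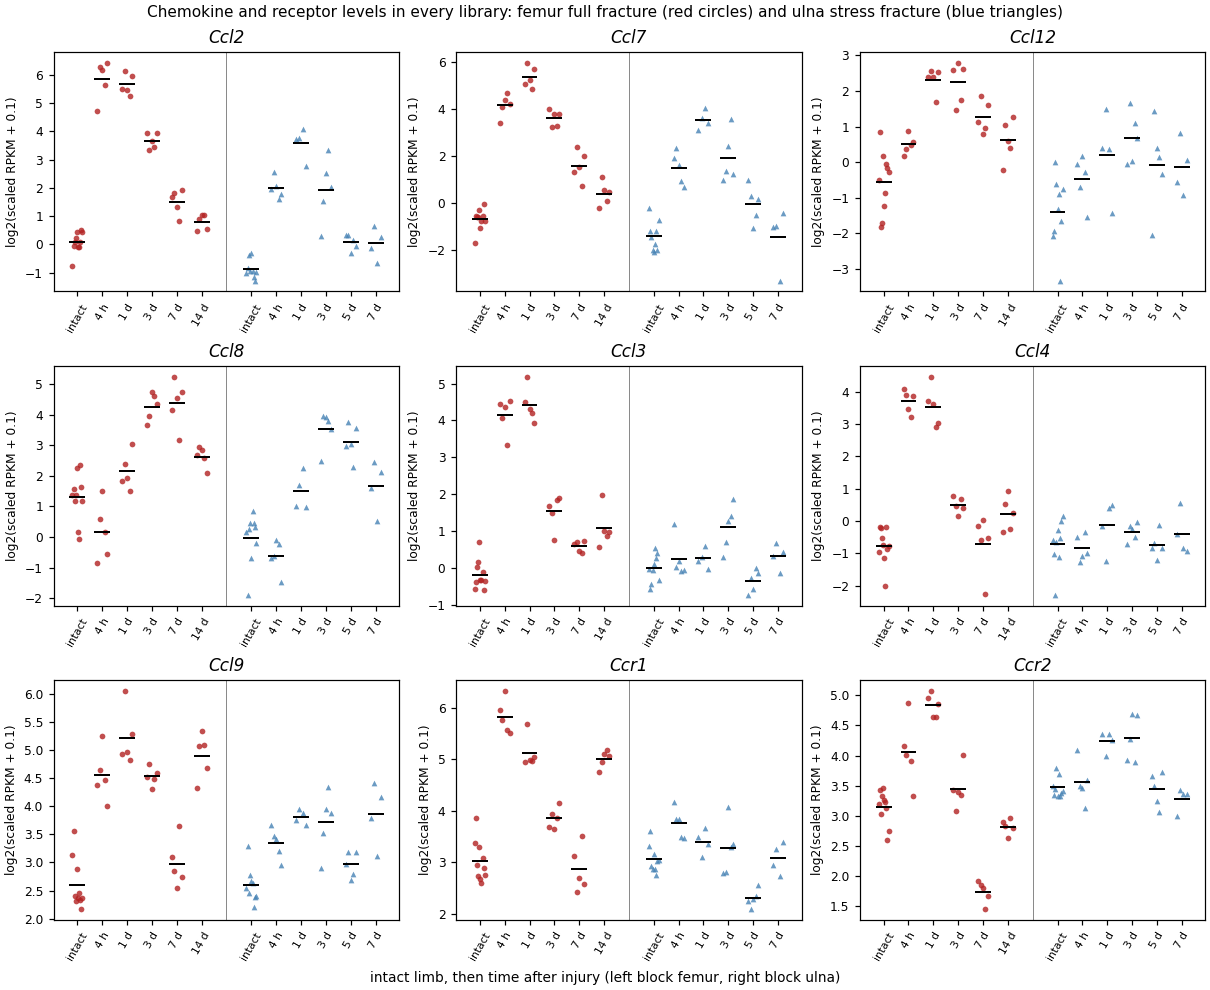
Level of each gene in every library, as log2(scaled RPKM + 0.1), with red circles for femora (left block of each panel) and blue triangles for ulnae (right block), intact limbs at the left of each block and times after injury in order; black bars are means. Ccl3 and Ccl4 stand above 9 scaled RPKM in every femur at 4 h, while the ulnae at 4 h lie among the intact ones except for Ccl3 in library 1.

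Ccl3 and Ccl4, a neighbouring pair also known as macrophage inflammatory proteins, were the genes in which the injuries differed most. Ccl3 held 21.8, 16.7, 20.6, 10.02 and 22.8 scaled RPKM in the 5 full fracture femora at 4 h and 22.7, 36.1, 19.9, 18.4 and 15.1 at 1 d, against 0.554 to 1.52 (median 0.691) in intact femora. Ccl4 held 17.1, 14.8, 10.97, 9.25 and 14.5 at 4 h and 13.01, 21.9, 12.1, 7.41 and 8.10 at 1 d, against 0.146 to 0.788 (median 0.497). Neither gene had an injured femur near the intact range at these times. Log2 differences were 4.33 ± 0.23 and 4.61 ± 0.23 for Ccl3 and 4.47 ± 0.30 and 4.30 ± 0.30 for Ccl4 (limma adjusted p from 7.06e-17 to 3.71e-13). By 3 d both had dropped steeply, to 1.59 to 3.65 for Ccl3 and 1.01 to 1.595 for Ccl4, and at 7 d Ccl4 differed from intact by 0.058 ± 0.30. Summed neutrophil markers were 5018 to 16110 at 4 h, against 2182 to 4494 in intact femora, and summed monocyte markers were 1068 to 2105, against 469 to 766. Their part was not tested.

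In the ulna neither gene was called at 4 h or 1 d. Ccl3 held 2.17, 0.916, 1.04, 0.849 and 0.863 scaled RPKM at 4 h and 1.04, 1.13, 1.395 and 0.880 at 1 d, against 0.569 to 1.34 in the 9 intact ulnae. Only library 1 at 4 h and library 4 at 1 d exceeded the highest intact ulna, and the log2 differences were 0.27 ± 0.23 and 0.27 ± 0.25 (limma adjusted p = 0.563 and 0.532). Ccl3 rose at 3 d alone, to 1.14 to 3.54 (1.12 ± 0.23, 3.09e-04). Ccl4 passed the threshold at no ulna time, with differences from -0.14 to 0.58 and limma adjusted p from 0.297 to 0.958. Its 95% interval at 4 h, -0.80 to 0.52, spans what could not be seen at this depth, a median of 5 reads in intact ulnae.

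Ccl9, a Ccr1 ligand that osteoclasts make, was the most abundant of the 7 ligands in intact bone and rose in a pair of phases. Femora held 20.6, 25.0, 38.1, 22.0 and 15.99 scaled RPKM at 4 h, 28.1 to 66.1 at 1 d and 19.8 to 26.7 at 3 d, against 4.402 to 11.8 (median 5.13) in intact femora. At 7 d they held 8.42, 7.07, 5.71, 12.4 and 6.61, and at 14 d 19.95, 33.4, 40.4, 33.8 and 25.5. The 7 d femora overlapped the intact range, with library 4 above it, whereas those of the other 4 times stood above all intact femora. Log2 differences were 1.95, 2.61, 1.94, 0.37 and 2.30 in order of time, each with an SE of 0.22, and the 7 d value was not called (limma adjusted p = 0.137). The step between 7 d and 14 d was 1.93 ± 0.26 (limma adjusted p = 4.39e-07, where 14% of all genes were called higher).

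Ccr1, the receptor of Ccl9 and Ccl3, was likewise high early and again at 14 d, and was highest at 4 h. Its femora held 61.7, 54.2, 79.9, 47.7 and 45.3 scaled RPKM at 4 h, 30.9 to 51.2 at 1 d, 12.5 to 17.7 at 3 d, 8.58, 5.26, 6.38, 11.3 and 5.89 at 7 d, and 26.7, 30.8, 34.1, 36.2 and 33.2 at 14 d, against 5.93 to 14.4 (median 7.45) in intact femora. The 4 h, 1 d and 14 d femora were above all intact ones, and the 3 d and 7 d femora overlapped them. Log2 differences were 2.81, 2.11, 0.84, -0.15 and 1.99 in order of time, each with an SE of 0.18, and the 7 d value was not called (limma adjusted p = 0.466). The step between 7 d and 14 d was 2.14 ± 0.20 (limma adjusted p = 9.70e-10).

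Osteoclast markers, like those of some other cells, were high in the late phase. At 14 d after full fracture 10 of 10 were higher than in intact femora, where 28.9% of all genes were called higher and 27% lower. Their summed level was 5346 to 6682, against 380 to 1107 in intact femora, and none was at 0. At 7 d they were mixed, 3 higher and 2 lower, where 32.5% of all genes were called higher and 33.6% lower. At 4 h and 1 d, when Ccl9 and Ccr1 were also high, 7 and 8 of 10 were lower and 0 higher (summed level 214 to 487 at 4 h and 208 to 384 at 1 d). Over all genes 28.5% and 24.8% were called lower at these times. Neutrophil markers went the other way, with 12 of 12 lower at 14 d, and erythroid, skeletal muscle and T and NK cell sums were below all intact femora. Macrophage sums at 14 d were above all intact femora (535 to 669, against 181 to 431), as were chondrocyte sums (341 to 2964, against 53.7 to 138). So were mesenchymal (10980 to 14870, against 3053 to 8938) and osteoblast sums (13440 to 16750, against 3331 to 9908). The part of any of these cells in the late rise was not tested.

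**Figure D3:**
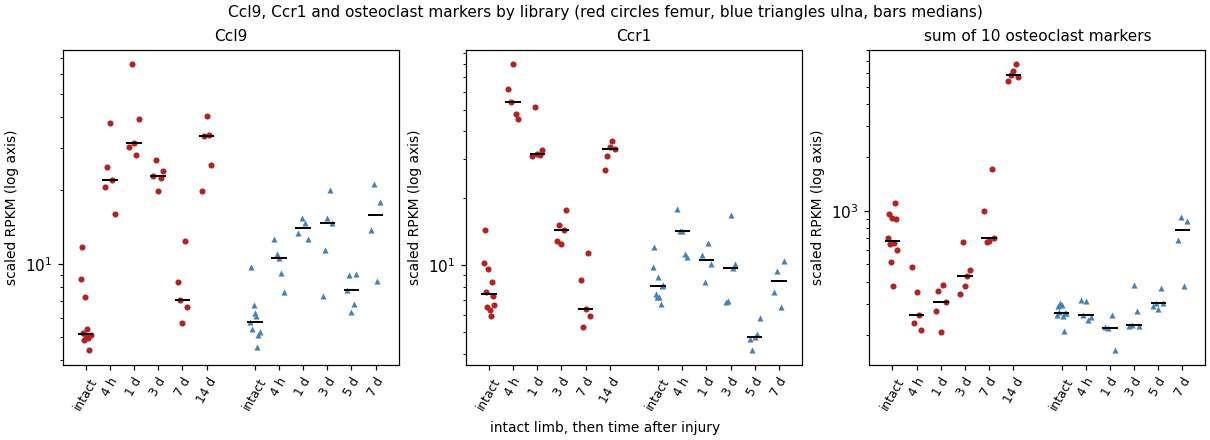
Ccl9, Ccr1 and the summed level of 10 osteoclast markers in every library, as scaled RPKM on a log axis, with red circles for femora and blue triangles for ulnae, intact limbs at the left of each block and bars at medians. All 3 panels are high at 14 d in the femur, and Ccl9 and Ccr1 but not the marker sum are high at 4 h and 1 d.

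After stress fracture Ccl9 was called higher at 4 times, and Ccr1 was called higher at 1 time and lower at another. Ccl9 was higher at 4 h (0.75 ± 0.20), 1 d (1.22 ± 0.21), 3 d (1.12 ± 0.20) and 7 d (1.27 ± 0.21, limma adjusted p = 2.66e-05) but not at 5 d (0.37 ± 0.20, 0.131). The 4 h call was lost without library 1 (0.66, 0.0518). At 7 d the ulnae held 13.8, 21.2, 8.51 and 17.9 scaled RPKM, against 4.53 to 9.71 in intact ulnae, so library 4, whose chondrocyte and osteoclast markers were low, alone overlapped them. Osteoclast markers were then higher for 8 of 10 genes, where 18.5% of all genes were called higher. Their sum was 379 to 925, against 213 to 303 in intact ulnae. At this time chondrocyte, mesenchymal and osteoblast sums were also above all intact ulnae, and neutrophil, erythroid and T and NK cell sums below them. The part of these markers was not tested. Ccr1 was higher at 4 h alone (0.70 ± 0.17, limma adjusted p = 0.00638) and lower at 5 d (-0.76 ± 0.17, 4.79e-04). At 5 d its 5 ulnae held 4.65, 4.15, 4.77, 4.93 and 5.79, all below the lowest intact ulna (6.67).

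Ccr2, the receptor that marks inflammatory monocytes, rose early and fell below intact bone after full fracture. Femora held 17.7, 15.96, 29.3, 14.9 and 9.95 scaled RPKM at 4 h, 31.0, 33.4, 24.7, 25.0 and 29.0 at 1 d and 3.71, 3.52, 3.39, 2.65 and 3.08 at 7 d, against 5.96 to 10.97 (median 9.20) in intact femora. The 1 d femora were all above and the 7 d femora all below the intact ones. Log2 differences were 0.91 ± 0.16 at 4 h, 1.69 ± 0.16 at 1 d, 0.31 ± 0.16 at 3 d, -1.40 ± 0.16 at 7 d and -0.32 ± 0.16 at 14 d (limma adjusted p = 1.66e-05, 3.68e-10, 0.110, 5.14e-09 and 0.0935). The authors' deposited table gave -0.38 with an adjusted p of 0.00631 at 14 d. At 7 d, 6 of 10 monocyte markers were lower and 3 higher, where 33.6% of all genes were called lower and 32.5% higher. At this time 11 of 12 neutrophil and 6 of 6 erythroid markers were also lower. The part of all these markers was not tested.

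In the ulna Ccr2 rose at 1 d and 3 d. The ulnae held 20.3, 15.9, 20.4 and 19.0 scaled RPKM at 1 d and 15.2, 19.4, 25.8, 14.8 and 25.3 at 3 d, against 9.92 to 13.8 in the 9 intact ulnae, with no overlap. The log2 differences were 0.77 ± 0.15 and 0.82 ± 0.14 (limma adjusted p = 8.83e-04 and 3.15e-05). No fall below intact bone was called at 5 d (-0.033 ± 0.14, 0.878) or 7 d (-0.18 ± 0.15, 0.378).

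The makeup of the mixture of these 7 ligands therefore changed with time, as shown by the plot of ligand shares. The shares leave out the 13 other CC ligands, which summed to 23.6 to 33.3 scaled RPKM in intact femora and 34.1 to 46.2 in intact ulnae. The 7 ligands summed to 139 ± 29.5 scaled RPKM at 4 h after full fracture and 178 ± 55.1 at 1 d (SD, n = 5 each), against 12.5 ± 3.45 in intact femora (n = 10). Ccl2 made up 43.5% ± 10.4 of that sum at 4 h, against 8.36% ± 2.73 in intact femora. Ccl8 made up 52.8% ± 12.96 at 7 d, against 20.8% ± 7.78 in intact femora. Ccl9 made up 68.4% ± 4.22 at 14 d, against 50.2% ± 10.2. In the ulna the sum was 44.6 ± 9.63 at 1 d (n = 4), against 9.72 ± 1.09 in intact ulnae (n = 9). There Ccl9 remained the largest component at 4 h, with 51.3% ± 3.39, while Ccl2 made up 20.1% ± 3.77. Ccl8 led at 5 d (41.9% ± 7.42) and Ccl9 at 7 d (67.5% ± 2.53), against 10.6% ± 4.74 and 62.0% ± 8.30 in intact ulnae.

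**Figure D4:**
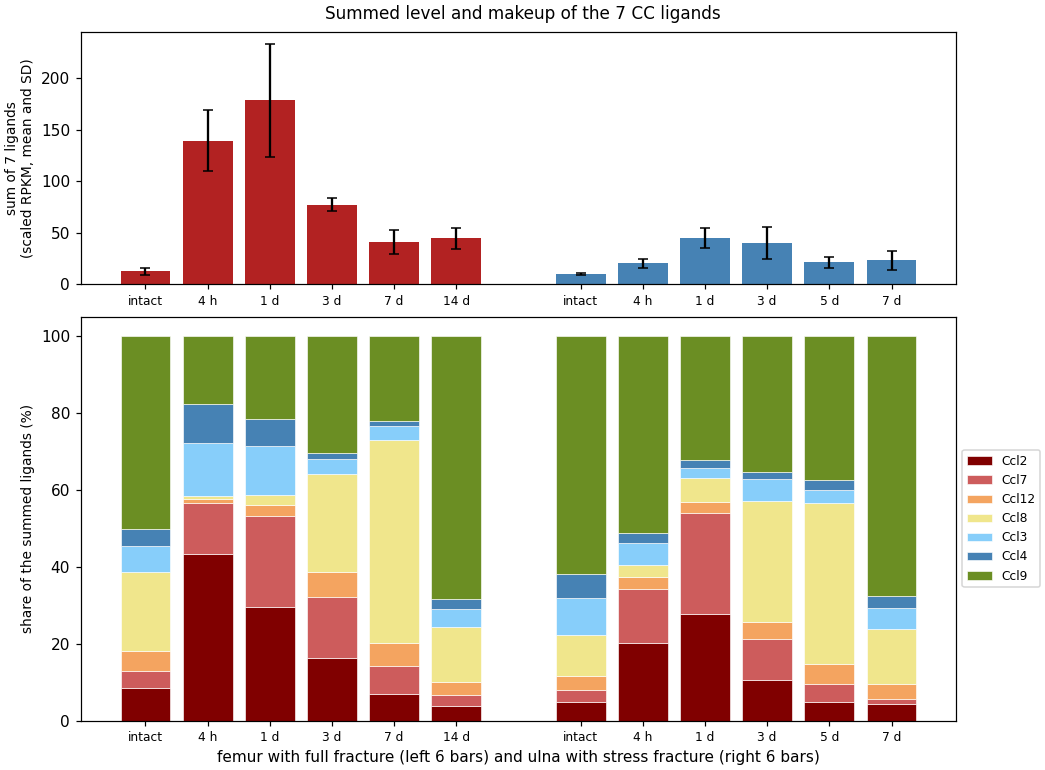
Upper panel, summed level of the 7 ligands in scaled RPKM (mean, bars show SD), and lower panel, the mean share of each ligand in that sum in percent, for femora with red sums on the left and ulnae with blue sums on the right, intact limbs first and then times after injury. Ccl2 and Ccl7 (dark and light red) are widest at 4 h and 1 d, Ccl8 (pale yellow) at 7 d in the femur and 5 d in the ulna, and Ccl9 (green) at 14 d in the femur and 7 d in the ulna.

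Whether the responses differed was tested directly as the full fracture difference minus the stress fracture difference at the 4 shared times. The injuries also differ in bone, section length and marrow removal, which cannot be told apart from the kind of injury. At 4 h the full fracture response was larger for 7 of the 9 genes and smaller for 0, where 17.8% of 21092 genes were called larger and 18.2% smaller, and the median of the 9 was 1.98. At 1 d it was larger for 6 and smaller for 0 (13.8% and 13.4% of all genes), with a median of 1.29. At 3 d it was larger for 2 and smaller for 0 (12.7% and 13.6%), with a median of 0.77, and at 7 d larger for 2 and smaller for 2 (23.5% each), with a median of 0.44. The medians over all genes lay between -0.10 and -0.056.

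The gap was widest for Ccl3 and Ccl4. The responses differed by 4.07 ± 0.33 for Ccl3 and 4.61 ± 0.44 for Ccl4 at 4 h, and by 4.34 ± 0.34 and 3.73 ± 0.46 at 1 d (limma adjusted p = 2.98e-15, 1.65e-12, 8.55e-15 and 1.53e-08). Ccl2 differed by 2.92 ± 0.39 at 4 h (1.78e-08) and by 1.15 ± 0.40 at 1 d (0.0274), the second lost without femur library 2 or 5 or ulna library 5 at 1 d (0.86 to 1.07) and with upper-quartile scaling or a pseudocount of 0.01. Ccr1 differed by 2.10 ± 0.25 and 1.76 ± 0.26 at these times, and Ccr2 by 0.82 ± 0.22 and 0.90 ± 0.23. Ccl12 and Ccl8 showed no called difference at 4 h, 1 d or 3 d. For Ccl8 the 95% intervals ran from -1.61 to 0.52 at 4 h, -1.79 to 0.42 at 1 d and -1.64 to 0.49 at 3 d.

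Late differences went both ways. At 7 d the full fracture response was larger for Ccl7 by 2.31 ± 0.52 (limma adjusted p = 2.32e-04; 1.71 without ulna library 4, which was listed at 0 and whose markers stood apart) and smaller for Ccr2 by -1.22 ± 0.23 (1.37e-05). For Ccl8 it was 1.37 ± 0.55 larger (0.0359) and for Ccl9 it was smaller, -0.90 ± 0.32 (0.0162). The Ccl8 call was lost without femur library 2, 3 or 5 or ulna library 1 or 4 (0.99 to 1.35) and under 4 other settings, and the Ccl9 call without ulna library 2 (-0.71, 0.0715). The 3 d calls for Ccl9 (0.82 ± 0.30, 0.0376) and Ccr1 (0.64 ± 0.25, 0.0484) were each lost without most single libraries, with values of 0.62 to 0.83 and 0.52 to 0.67 where lost.

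**Figure D5:**
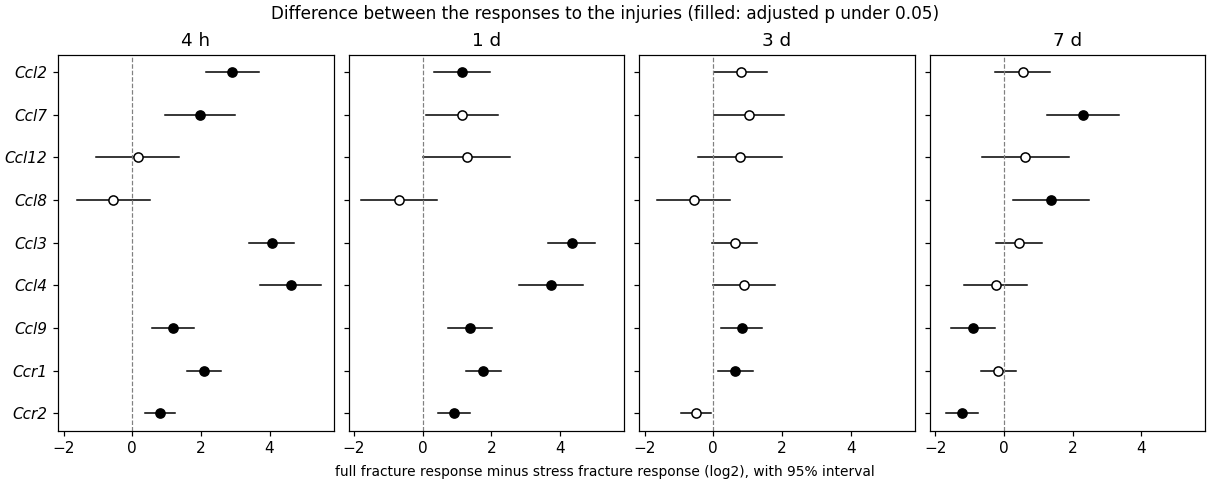
Difference between the full fracture and stress fracture responses (log2, points) with 95% intervals (lines) for each gene at 4 h, 1 d, 3 d and 7 d; filled points have an adjusted p under 0.05, and points right of 0 mean a larger response to full fracture. Ccl3 and Ccl4 lie beyond 3.7 at 4 h and 1 d, and Ccr2 lies to the right of 0 at these times and to the left at 7 d.

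Intact bones differed in their starting levels. Intact ulnae were lower than intact femora for 4 of the 9 genes and higher for 0, where 21.7% of 21092 genes were called lower and 18% higher, and the median of the 9 was -0.19, against -0.0065 for all genes. The 4 were Ccl2 (-1.12 ± 0.23), Ccl7 (-0.86 ± 0.30), Ccl12 (-0.98 ± 0.36) and Ccl8 (-1.50 ± 0.31), the cluster within 81.2 kb. On the scale of both bones Ccl8 was 0.937 ± 0.425 scaled RPKM in intact ulnae and 2.86 ± 1.42 in intact femora, and Ccl2 was 0.430 ± 0.129 and 1.05 ± 0.269 (SD, n = 9 ulnae and 10 femora). Their ranges met for Ccl8 (0.160 to 1.595 in ulnae, 0.917 to 5.32 in femora) and for Ccl2 (0.290 to 0.660 in ulnae, 0.516 to 1.396 in femora). The Ccl12 call was lost with RPKM as deposited (-0.82, limma adjusted p = 0.0554), and the Ccl7 and Ccl12 calls with a pseudocount of 1 (-0.29 and -0.36). As deposited, 8034 genes were called higher and 2139 lower in intact ulnae, against 3794 and 4579 with the scaling used, and Ccr2 was also called higher (0.35).

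Genes that shared a time course were compared over the 12 group means, each taken minus intact bone of its kind (which stands at 0), as a description only, since the points share intact groups and libraries. Ccl2 and Ccl7 had a Pearson r of 0.963, and Ccl3 and Ccl4 0.976. Ccr1 had 0.863 with Ccl3, 0.859 with Ccl4 and 0.818 with Ccl9. Ccl8 had its highest r, 0.568, with its neighbour Ccl12, and -0.168 with Ccl2. Among 10159 genes compared, the 9 included, those outside the 9 most like Ccl2 were Rrad, Il4ra and Ch25h (0.952, 0.943 and 0.931), and those most like Ccl8 were Rrbp1, Praf2 and Rac3 (0.974, 0.973 and 0.969). Ccl7 was most like Camkk2, Bysl and Acot9, Ccl12 most like C3ar1, Spsb2 and Ms4a6d, Ccl3 most like Fnip2, Fgd3 and Plekho2, and Ccl4 most like Tnfrsf26, Rhov and Plekho2. Ccl9 was most like Usp34, Gm14005 and Il10rb, Ccr1 most like Ssh1, Spi1 and Cpsf4, and Ccr2 most like Tmem50b, Irf5 and Smg9.

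Other CC ligands were mixed. Of 13 other CC ligands 9 were tested, and at 4 h after full fracture 4 were higher and 3 lower (median -0.058; 28.3% and 28.5% of all genes). At 1 d 3 were higher and 3 lower (median -0.24), shares near the 26.7% and 24.8% of all genes. Ccl6, which lies between Ccl9 and Ccl3, held 51.8 ± 7.33 scaled RPKM at 4 h and 89.7 ± 28.5 at 1 d (SD, n = 5), against 14.6 ± 3.12 in intact femora (n = 10), differences of 1.84 ± 0.15 and 2.59 ± 0.15. Ccl24, an eosinophil attractant, was higher at 1 d by 2.85, whereas Ccl5, a T cell and monocyte attractant, was lower at 1 d by -1.50. Ccl17 was higher at 4 h in both bones, by 2.39 in the femur and 2.86 in the ulna. In the ulna 3 of 9 were higher and 0 lower at 4 h (5.51% and 5.19% of all genes), and 2 higher and 0 lower at 3 d, near the 20.2% of all genes called higher. Ccl21a and Ccl27a have near-identical copies, and their values are uncertain.

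Of the other receptors and decoys, 9 of 12 were tested in the femur and 10 of 12 in the ulna. At 4 h after full fracture 5 were higher and 2 lower (median 0.75), where 28.3% of all genes were higher and 28.5% lower. Ackr1, a decoy of venule walls and red cells, was higher at 4 h (0.90 in the femur and 0.54 in the ulna) and lower at 7 d (-1.67 and -0.60).

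Cytokines and NF-kB genes that drive or limit chemokine transcription gave 10 of 13 tested genes. All 10 were higher at 4 h after full fracture (median 2.39) and 9 at 1 d (median 1.14), and 4 and 5 were higher at these times after stress fracture (medians 0.40 and 0.37), with 0 lower. Over all genes 28.3% and 26.7% were called higher at these times after full fracture, and 5.51% and 8.83% after stress fracture. Il6 held 35.2 ± 8.56 scaled RPKM at 4 h in full fracture femora (n = 5), against 0.143 ± 0.0938 in intact femora (n = 10), and 0.771 ± 0.343 in stress fracture ulnae (n = 5), against 0.0701 ± 0.0764 in intact ulnae (n = 9). Il1b held 50.0 ± 8.60 and 6.41 ± 2.62 at 4 h in injured femora and ulnae, against 1.98 ± 0.566 and 3.72 ± 1.05 in intact femora and ulnae. Responses differed by 4.97 for Il6 and 3.89 for Il1b at 4 h, and 9 of the 10 genes were called larger after full fracture, where 17.8% of all genes were. Il6, near 0 in intact bone, entered the fits only through injured libraries. The counts over tested genes are thus partly set by the filter, and Ifnb1 and Il17a were at 0 in all full fracture femora at 4 h.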

How the data were processed

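Total RNA of bone sections was depleted of rRNA and read as single 50 nt reads, per the labels' protocols. The submitters' processing notes name STAR 2.4.2a, Subread, featureCounts 1.4.6, DESeq2 and the mm10 build, without saying what each was used for. The sources used here give neither the strand setting nor the annotation of the counting. The deposited tables held RPKM, and the authors' test tables held log2 fold changes with SE and adjusted p-values, per the file headers. Times of the ulna tables come from sheet names. Across genes, stress fracture differences had r of 0.966 to 0.996 with the deposited test table of the same time and at most 0.925 with another.

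Each table was scaled by the median of ratios over genes above 0 everywhere (factors 0.835 to 1.14 in femur, 0.905 to 1.11 in ulna, 0.782 to 1.18 over both bones). A gene entered a fit if 5 or more libraries held 0.5 scaled RPKM or more (19944 in femur, 20506 in ulna, 21092 over both), and 27 names turned into dates were left out per bone. The limma package 3.58.1 (R 4.3.3) then fitted log2(scaled RPKM + 0.1) (trend and robust, Benjamini-Hochberg over all genes, 0.05), with 1 fit per bone and 1 over both for response differences and intact bones. The code was tested on simulated data. Other scalings, pseudocounts, filters and fits and each injured library left out were tried as alternatives. Depth was rebuilt from RPKM steps with GENCODE M21 lengths, and 88.7 to 91.3% of values under 20 reads came out whole within 0.01. Since the depths are estimates and the receptors' reads did not come out whole, no count test was run. Figures were drawn with matplotlib 3.10.9.

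All 9 members were named, with the 3 most similar genes by Pearson r over group means among genes with a highest group mean of at least 5. Members and lists were chosen with earlier results of these data known. Replicates are separate limbs by title, and columns carry no animal numbers. A gene of the receptor list is not reported here.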

Additional observations from a re-analysis of the deposited data

Results flagged for a closer look

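Among 108 groups of 4 to 10 libraries, 7 held a library far from the others, and chance flags about 1 in 20 groups. After full fracture, Ccl12 was lowest in library 4 at 1 d (3.14 scaled RPKM, others 5.12 to 5.76), Ccr1 highest in library 2 at 1 d (51.2, others 30.9 to 33.1) and Ccl3 highest in library 2 at 14 d (3.81, others 1.39 to 1.89). In intact femora Ccl3 was highest in library 5 (1.52, others 0.554 to 1.02) and Ccr1 in library 2 (14.4, others 5.93 to 10.3). After stress fracture Ccl3 was highest in library 1 at 4 h (2.17, others 0.849 to 1.04), and in intact ulnae Ccl9 was highest in library 2 (9.71, others 4.53 to 6.77).

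The difference between the full fracture and the stress fracture response, tested itself with limma, passed the threshold for 19 of 36 results. At 4 h it was 2.92 for Ccl2, 1.98 for Ccl7, 4.07 for Ccl3, 4.61 for Ccl4, 1.19 for Ccl9, 2.10 for Ccr1 and 0.82 for Ccr2. At 1 d it was 1.15 for Ccl2, 4.34 for Ccl3, 3.73 for Ccl4, 1.38 for Ccl9, 1.76 for Ccr1 and 0.90 for Ccr2. At 3 d it was 0.82 for Ccl9 and 0.64 for Ccr1. At 7 d it was 2.31 for Ccl7, 1.37 for Ccl8, -0.90 for Ccl9 and -1.22 for Ccr2.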

How the results depend on the processing

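Of 63 called differences between injured and intact limbs, 56 kept their call in every alternative, and of 19 called response differences 14 did. Of 4 called differences between intact bones 2 kept it, and of 45 called differences between consecutive times 32 did. No called value changed sign. No paired analysis was possible because the table columns carry no animal numbers. Where calls changed, the cause was not tested. With RPKM as deposited the median of all genes shifted by more than 0.1 in some comparisons (0.20 for intact ulna minus intact femur, against -0.0065).

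Genes called with RPKM as deposited were 8034 higher and 2139 lower in intact ulna minus intact femur, 744 higher at stress fracture 4 h and 7130 lower at stress fracture 5 d. With upper-quartile scaling 3684 were higher at full fracture 4 h, and response differences gave 2316 larger and 6355 smaller at 4 h, 1835 larger at 1 d and 1674 larger at 3 d. Of the 9 members, those called larger at 3 d in the response numbered 0 with no filter or upper-quartile scaling, 1 with no trend and 5 with pseudocount 1, and 1 was smaller with upper-quartile scaling. At 7 d 1 was larger with no filter, pseudocount 0.01, RPKM as deposited or upper-quartile scaling. Pseudocount 1 left 2 higher at stress fracture 5 d and 2 lower in intact ulna minus intact femur, where 1 was higher with RPKM as deposited. At full fracture 14 d 1 was lower with only 2 groups in the fit or upper-quartile scaling.

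Values not called that changed sign were, with RPKM as deposited, Ccl3 0.19, Ccl4 0.079, Ccl9 0.023 and Ccr1 0.073 (intact ulna minus intact femur), Ccl4 -0.12 (full fracture 7 d) and Ccr1 -0.076 (stress fracture 7 d); with upper-quartile scaling, Ccl12 -0.042 (response 4 h), Ccl3 0.016 (intact bones) and Ccl4 -0.086 (full fracture 7 d); with pseudocount 0.01, Ccl12 -0.19 (response 4 h) and Ccl4 0.0080 (stress fracture 5 d); and with pseudocount 1, Ccl7 0.043 (stress fracture 7 d).

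Leaving out 1 injured library at a time gave, at stress fracture 1 d, 1163 to 1807 genes higher and 523 to 729 lower, the lowest of both without library 2. Members numbered 0 to 3 larger and 0 to 1 smaller in the response at 3 d, 1 to 2 larger and 1 to 2 smaller at 7 d, and 0 to 1 lower at full fracture 4 h. Uncalled values ranged from -0.10 to 0.31 (Ccl12, response 4 h), -0.12 to 0.45 (Ccl4, full fracture 7 d), -0.42 to 0.16 (Ccl4, response 7 d), -0.18 to 0.094 and -0.011 to 0.48 (Ccl4, stress fracture 5 d and 7 d), -0.36 to 0.60 (Ccl7, stress fracture 7 d), -0.0026 to 0.32 and -0.094 to 0.13 (Ccr1, stress fracture 3 d and 7 d), and -0.054 to 0.19 and -0.10 to 0.060 (Ccr2, stress fracture 4 h and 5 d). With at most 9 intact ulnae and single-digit median reads for several ligands, small ulna changes cannot be seen.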
